A study of Rattus norvegicus with 6 samples.

Results

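Integrins and laminins were followed in whole lung from rats given monocrotaline (MCT), a toxin of Crotalaria plants that injures lung vessels and serves as a rat model of pulmonary hypertension. The members were set by gene symbol, with earlier results of these data known. They are every integrin α or β subunit and every laminin α, β or γ chain that a fixed pattern of symbols matched. This gave 34 of the 23802 genes in the table, of which 24 were integrin and 10 were laminin subunits, each with 1 entry. Of these, 32 passed the filter on low counts and were tested, and the members left untested were Itga10 and Lama1. Itgam, Itgb5, Lama3 and Lamb4 had no entry under these symbols and are not analysed here. All animals were male Sprague-Dawley rats of 200 to 250 g labelled WT. The 3 MCT samples came from rats given 60 mg/kg MCT once, with the lung taken 4 weeks later. The 3 control samples came from rats given saline. The labels give the MCT route as intraperitoneal in one field and subcutaneous in another, and that of saline as subcutaneous. The age is not given. Each sample is whole lung, with all its cell types.

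Integrins are membrane receptors made of 1 α and 1 β chain, and the pairing sets the ligand. Laminins are cross-shaped trimers of an α, a β and a γ chain, and with type IV collagen they form the sheet of every basement membrane. In the lung such sheets lie under the airway and alveolar epithelium and around capillaries, smooth muscle and nerves. Integrins that bind laminin hold epithelium to them, while leukocytes use the β2 and β7 integrins to leave vessels and enter tissue.

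Summed counts were 13525912 to 17916134 per sample, and between 17674 and 17950 genes had a count. The members took 0.304% to 0.34% of the counts in control and 0.35% to 0.404% in MCT samples. Whether the samples stem from separate animals is not said in the labels, so the p-values reflect sample-to-sample spread that may be technical. Levels of a gene are given as CPM, counts scaled to library size with TMM factors, and per length as the authors' FPKM where genes are compared. Log2 fold changes compare MCT with control lungs and carry a standard error (SE), derived from the test named next. EdgeR's quasi-likelihood test was run over all genes, and the word called marks a Benjamini-Hochberg adjusted p under 0.05. In bulk tissue, fewer cells of a type and less RNA per cell cannot be told apart.

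Lamc1, Itga3 and Itgb2 were among 4 members called higher in MCT lungs, and Itgb6 was the 1 called lower. The calls are 5 of the 32 tested members, or 15.6%, against 13.1% of the 15250 genes tested. The share called higher over all genes was 8.01% and the share called lower was 5.11%, so the members' counts lie near this background. MCT and control samples did not overlap in 14 members, 10 of them higher and 4 lower in MCT. That is 43.8%, against 35.4% of all tested genes. The members' median log2 fold change was 0.20, where that of all tested genes was -0.01. The called changes were all under 2-fold, as the plot of fold changes shows. Leaving out single samples changed these counts. Without control replicate 3, edgeR called 0 members in either direction, with 7 higher and 2 lower at an unadjusted p under 0.05. Without control replicate 2 there were 2 called higher, Itgb2 and Lamc1, and 1 lower, Itgb6. Without MCT replicate 2 there were 5 higher and 4 lower. Counts over all tested genes changed as well, from 1221 higher and 779 lower in the full data. They were 481 and 212 without control replicate 3, and 562 and 273 without control replicate 2. Without MCT replicate 2 they were 1394 and 978.

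**Figure D1:**
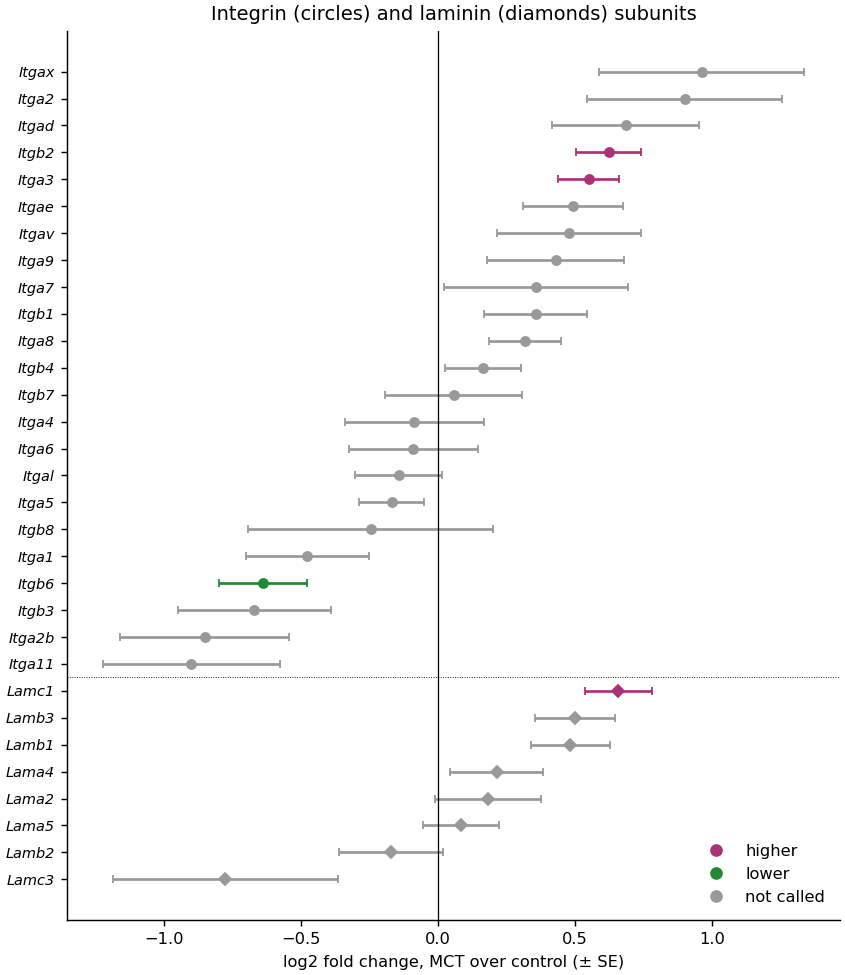
Log2 fold change of 31 of the tested subunits, MCT over control, with the SE as a bar; integrins are circles, laminins are diamonds, and colour marks the edgeR call. The 3 drawn as called higher lie between 0.55 and 0.66, and the 1 called lower lies at -0.64.

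Per length, Itgb1, the β chain shared by most integrins of tissue cells, stood above all other members. It had 229 ± 48.5 FPKM in control and 291 ± 28.7 FPKM in MCT lungs (SD, n = 3). Lamb2 followed at 87.97 ± 7.26 FPKM in controls, a level that overlapped with no other member in the control samples. Itga8, Itgb2, Itga3, Lamb3 and Itgb6 came next with control means of 41.1 to 30.5 FPKM. Of these neighbours, Itga8 with Itgb2, Itgb2 with Itga3, and Lamb3 with Itgb6 overlapped across the control samples. In MCT lungs Itgb2 stood above Itga8 and Itga3 by its mean, at 61.3 ± 4.36 against 50.9 ± 4.6 and 54.0 ± 2.83 FPKM. Itgb6 had dropped to 19.4 ± 2.44 FPKM, below Lamb1, Lama5 and Lamc1 by the means. At the low end, Itgb8, Itga2, Lama1 and Itga10 had control means of 0.353, 0.283, 0.0367 and 0.0167 FPKM. Itga10 was seen with 0 to 2 counts in the controls and 5 to 9 in the MCT lungs. Lama1 had 3.42 to 19.4 estimated counts over the 6 samples, and both were too scarce for the test. The FPKM of Lamc1 is less certain than most. The gene length implied by count, total and FPKM differed between libraries by 38.9% for Lamc1, against under 1% for Lamb1, Lamb3, Itga3, Itgb1, Itgb2 and Itgb6.

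**Figure D2:**
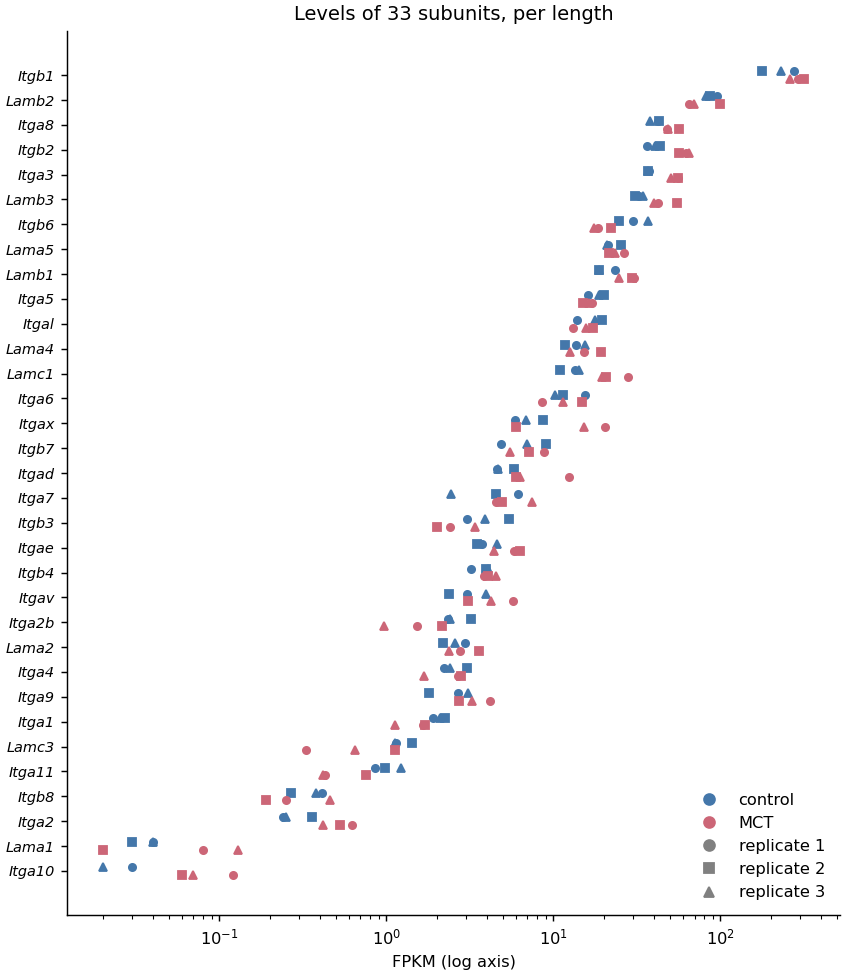
FPKM of 33 subunits on a log axis, ordered by the control mean, with 1 point per sample; the value of 0 for Itga10 in control replicate 2 cannot be drawn. Itgb1 stands alone at the top in both groups, and Lama1 and Itga10 lie lowest.

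Lamc1 encodes γ1, the γ chain of most vascular, muscle and epithelial laminins. It had 60.9, 62.9 and 63.1 CPM in control replicates 1 to 3 and 113, 88.3 and 93.9 CPM in MCT replicates 1 to 3. The controls lay within a narrow band and every MCT sample was above them. Lamc1 rose 1.58-fold (log2 0.66, SE 0.12, adjusted p = 0.012). The call ended without control replicate 3 (adjusted p = 0.0516), with the value at 0.67.

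Lamc3, the γ3 chain gene, was scarce and had the opposite sign. It had 5.52, 6.78 and 5.12 CPM in controls and 1.56, 5.45 and 3.08 CPM in MCT lungs. MCT replicate 2 lay among the controls while the other MCT samples lay below them. The log2 difference was -0.78 (SE 0.41, adjusted p = 0.244), and it was called only without MCT replicate 2, at -1.32 (adjusted p = 0.0485).

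**Figure D3:**
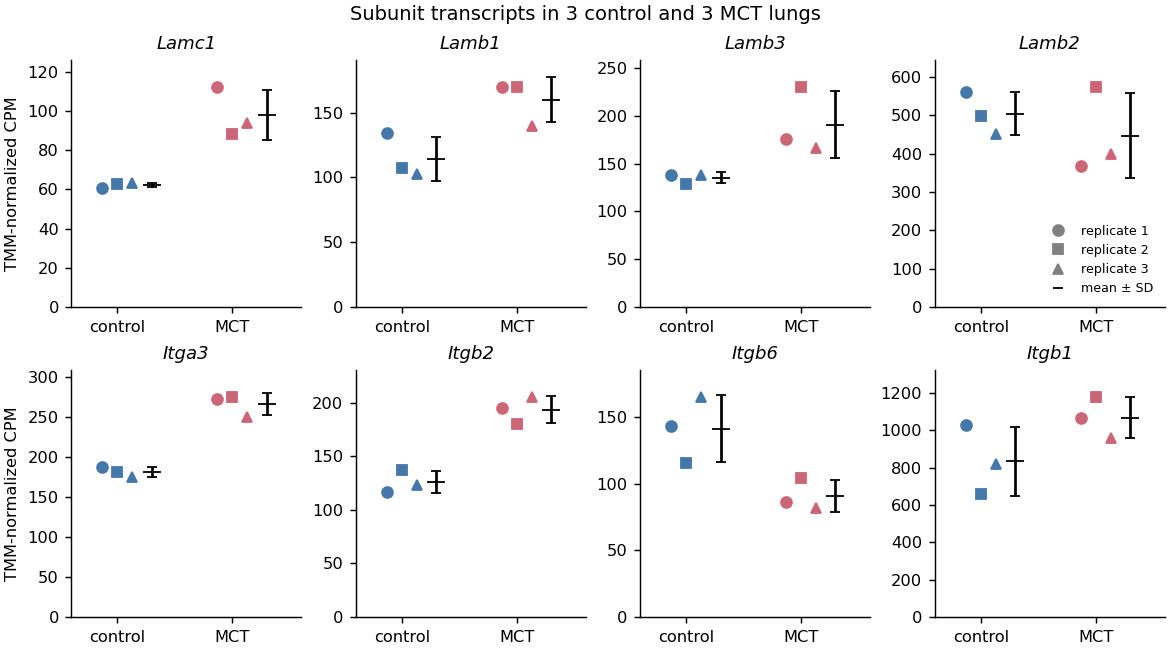
TMM-normalized CPM of 8 subunits in each of 3 control and 3 MCT lungs, with the mean and SD beside the points; marker shape gives the replicate number, which has no order. Lamc1, Lamb1, Lamb3, Itga3 and Itgb2 lie higher in all MCT samples, Itgb6 lies lower in all, and Lamb2 and Itgb1 overlap.

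In RefSeq's order on the GRCr8 assembly, Itgax and Itgad are neighbours with 0 protein-coding genes between them, as are Itga2 and Itga1. The Itgax and Itgad pair had log2 fold changes of 0.96 and 0.68, and the Itga2 and Itga1 pair had 0.90 and -0.48. None of these 4 genes was called. RefSeq promoter sequence was matched for 25 of the 34 members. It is shown for the called members with a match, and for Lamb1, the usual β partner of γ1. Each line gives the 250 bases before the annotated start, 5′ to 3′ on the gene's strand, and capitals mark GC boxes, the letters GGGCGG on either strand. Lamc1 is at chr13:68051987-68052236 (minus strand), Itga3 at chr10:80518902-80519151 (minus), Itgb6 at chr3:65530334-65530583 (minus) and Lamb1 at chr6:53562846-53563095 (plus), all on GRCr8.
Lamc1: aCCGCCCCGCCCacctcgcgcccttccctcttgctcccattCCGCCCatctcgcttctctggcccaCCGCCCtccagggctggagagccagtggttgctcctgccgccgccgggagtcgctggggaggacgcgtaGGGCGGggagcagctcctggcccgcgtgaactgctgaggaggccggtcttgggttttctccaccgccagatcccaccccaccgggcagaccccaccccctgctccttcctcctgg
Lamb1: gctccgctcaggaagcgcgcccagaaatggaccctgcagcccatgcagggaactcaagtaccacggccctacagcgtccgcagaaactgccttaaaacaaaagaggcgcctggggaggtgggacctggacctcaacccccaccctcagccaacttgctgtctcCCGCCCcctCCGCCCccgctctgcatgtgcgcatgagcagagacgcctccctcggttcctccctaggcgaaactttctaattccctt
Itga3: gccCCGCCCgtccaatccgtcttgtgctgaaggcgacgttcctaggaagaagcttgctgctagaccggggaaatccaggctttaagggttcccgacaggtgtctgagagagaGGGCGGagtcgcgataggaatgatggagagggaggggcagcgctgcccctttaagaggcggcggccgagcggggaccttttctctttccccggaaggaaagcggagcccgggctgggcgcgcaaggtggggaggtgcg
Itgb6: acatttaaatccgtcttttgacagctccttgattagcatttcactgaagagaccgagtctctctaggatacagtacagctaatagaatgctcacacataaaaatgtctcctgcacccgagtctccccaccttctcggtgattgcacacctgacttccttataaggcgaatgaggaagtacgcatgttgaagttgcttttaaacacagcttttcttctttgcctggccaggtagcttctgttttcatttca

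The Lamc1 window held 5 GC boxes, the first 2 of which overlap by their ends, the Lamb1 and Itga3 windows held 2 each, and the Itgb6 window held 0. Over all members with a match, 13 of 25 held a GC box, while 30.5% of 33360 promoter windows of this length did. The members have 1 window per gene, while the 33360 are all distinct windows, not limited to 1 per gene or to expressed genes. The 2 shares are therefore not like for like, here and for the other motifs below. The G and C content was 71.2% for Lamc1, 62% for Lamb1, 64% for Itga3 and 43.2% for Itgb6. An AP-1 match (TGANTCA) occurred in 1 member, Itgax, and in 6.35% of all windows. A TATA match (TATAAA) occurred in 2 members, Itgb7 and Lama4, against 12.9% of windows. An E box (CACGTG) occurred in 0 members, against 5.61% of windows. These are matches of letters and were not measured as binding sites.

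The laminin β chains Lamb1 and Lamb3 were higher in every MCT sample without passing the test. Lamb3, the β3 chain of epithelial laminin, had 138, 128 and 139 CPM in controls and 175, 231 and 166 CPM in MCT lungs. Its highest sample was MCT replicate 2 and its log2 fold change was 0.50 (SE 0.15, adjusted p = 0.0573). Lamb1 had 134, 107 and 102 CPM in controls and 170.1, 169.7 and 139.8 CPM in MCT lungs. Here the lowest MCT sample was close to the highest control, and the log2 difference was 0.48 (SE 0.14, adjusted p = 0.061). Both were called with DESeq2 (adjusted p = 0.0196 for Lamb3 and 0.0271 for Lamb1), and Lamb1 also without control replicate 1 (adjusted p = 0.0378). Lamb2, the most abundant laminin and a chain of mature vascular and neuromuscular laminins, had 562, 498 and 450.2 CPM in controls. In MCT lungs it had 368, 575 and 398 CPM, so replicate 2 lay with the controls and the others below. Its log2 fold change was -0.17 (SE 0.19, adjusted p = 0.591). Of the 3 β chains, edgeR called 0, while 2 were higher at an unadjusted p under 0.05 and 2 with DESeq2.

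Laminin α chains showed no called change. Lama5, the α chain of epithelial and endothelial basement membrane, had a log2 fold change of 0.08 (SE 0.14, adjusted p = 0.734). Lama4, of endothelium and muscle, had 0.21 (SE 0.17, adjusted p = 0.448), and Lama2, of muscle and nerve sheath, had 0.18 (SE 0.19, adjusted p = 0.57). In all 3 the groups overlapped: Lama5 spanned 229 to 289.9 CPM in controls and 248 to 298 CPM in MCT lungs. Lama4 spanned 70.7 to 88.6 and 74.8 to 116 CPM, and Lama2 spanned 20.5 to 28.3 and 22.3 to 33.9 CPM. Of 7 endothelial markers 3 were called lower, with sums of 2722 to 3142 and 1401 to 2708 CPM, and their part in the α chain levels was not tested. EdgeR called 0 of the 3 tested α chains, with 0 at an unadjusted p under 0.05 and 0 with DESeq2.

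The mix within the laminin β and α classes was computed from CPM divided by each gene's mean implied length. Within the β class, Lamb2 made up 62.4% ± 1.73 of the sum in control and 50.9% ± 3.56 in MCT lungs (SD, n = 3). Lamb3 made up 23.3% ± 2.15 in control and 30.3% ± 0.639 in MCT lungs, and Lamb1 14.3% ± 0.809 and 18.9% ± 2.97. For each β chain the shares of the groups did not overlap. This is a description of shares that are bound to sum to a whole, and was not tested. Within the α class, without Lama3, Lama5 held 58.1% ± 5.68 in control and 56.2% ± 6.62 in MCT lungs.

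**Figure D4:**
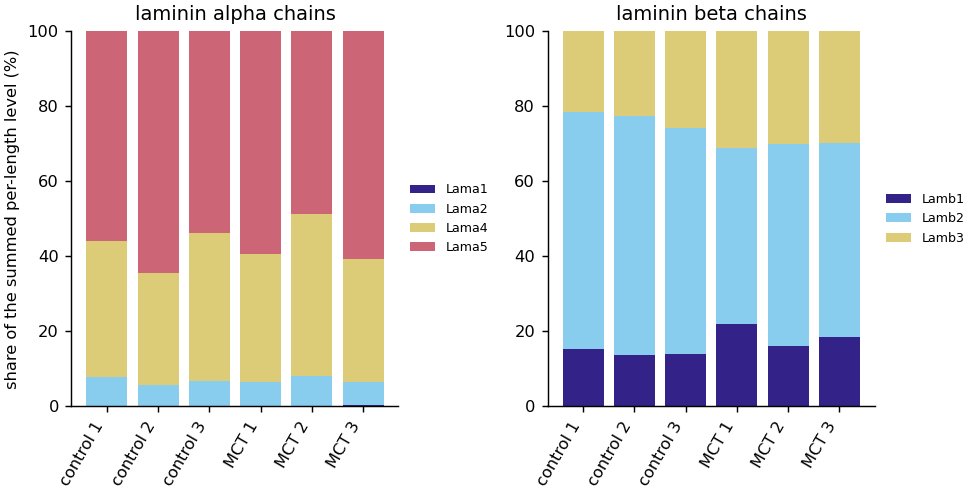
Share of each laminin α or β chain in the summed level of its class (CPM divided by mean implied gene length), in percent, for each of the 6 samples; Lama3 is not included. The Lamb2 share lies between 60.4% and 63.6% in controls and between 47.0% and 53.9% in MCT lungs, while the α chain shares overlap.

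Among integrins that bind laminin, Itga3 rose and the others did not pass. Itga3 encodes α3, which pairs with β1 in alveolar and airway epithelium. It had 188, 182 and 175 CPM in controls and 272, 276 and 249.9 CPM in MCT lungs. Both groups were tight and well apart, and Itga3 rose 1.46-fold (log2 0.55, SE 0.11, adjusted p = 0.0168). Leaving out control replicate 2 or control replicate 3 ended the call (adjusted p = 0.0588 and 0.0782), with values of 0.55 and 0.53. Itga6, the α6 chain of epithelial and endothelial cells, had 59.0 to 94.5 CPM in controls and 50.5 to 89.8 CPM in MCT lungs. Its log2 fold change was -0.09 (SE 0.23, adjusted p = 0.836), and leaving out replicate 1 of either group turned its sign. Itgb4, the β4 partner of α6 in hemidesmosomes, had 0.16 (SE 0.14, adjusted p = 0.476). The estimated counts of Itgb4 were not whole in any sample. Itga7, the muscle laminin receptor, had 9.38 to 24.4 CPM in controls and 17.6 to 29.3 CPM in MCT lungs (log2 0.36, SE 0.34, adjusted p = 0.52).

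Collagen-binding α chains were scarce and did not move together. Itga1, found on smooth muscle and other mesenchymal cells, had 8.12, 9.46 and 8.52 CPM in controls and 6.85, 7.17 and 4.69 CPM in MCT lungs. All MCT samples were lower, with a log2 fold change of -0.48 (SE 0.23, adjusted p = 0.195). Itga11, a collagen receptor chain of fibroblasts, had 3.99, 4.54 and 5.5 CPM in controls and 1.97, 3.56 and 1.96 CPM in MCT lungs. Its log2 fold change was -0.90 (SE 0.32, adjusted p = 0.104), and leaving out MCT replicate 2 brought a call (-1.25, adjusted p = 0.0363). Itga2, the α2 chain of platelets and epithelium, was higher in every MCT sample, from 0.932, 1.42 and 0.917 CPM to 2.37, 2.07 and 1.61 CPM. The log2 fold change of 0.90 (SE 0.36, adjusted p = 0.131) rests on 14 to 19 counts in each control and 23 to 35 in each MCT lung. EdgeR called 0 of the 3 tested, with 1 higher and 1 lower at an unadjusted p under 0.05 and 0 with DESeq2.

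Integrin α chains that read the RGD motif of fibronectin and related ligands were not called. Itga8, an α chain of alveolar mesenchyme and smooth muscle, was the most abundant α chain per length in control lungs. It had 253, 254 and 214 CPM in controls and 279, 334 and 285 CPM in MCT lungs. The groups did not overlap, yet the log2 difference was 0.32 (SE 0.13, adjusted p = 0.149). Of 6 smooth muscle markers 3 were called higher. That list summed to 736 to 882 CPM in control and 990.2 to 1508 CPM in MCT lungs. Of 6 fibroblast markers 0 were called higher and 1 lower. Their list summed to 696 to 768 CPM in control and 628 to 727 CPM in MCT lungs. The part of these cells in the levels of Itga8 and Itga11 was not tested. Itgav, the α chain of the integrins that release TGF-β from its latent complex, had 7.52 to 12.0 CPM and 9.84 to 17.9 CPM (log2 0.48, SE 0.26, adjusted p = 0.26). Itga5, the fibronectin receptor chain, had 72.1 to 88.8 CPM and 66.9 to 74.8 CPM (log2 -0.17, SE 0.12, adjusted p = 0.376). Its ligand gene Fn1 was 5.25-fold higher in the same lungs (adjusted p = 0.000757).

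Itga2b and Itgb3, the chains of the platelet fibrinogen receptor, both had negative values. Itga2b had 7.25, 9.76 and 7.01 CPM in controls and 3.93, 6.28 and 3.01 CPM in MCT lungs, with no overlap. The log2 difference was -0.85 (SE 0.31, adjusted p = 0.105), with a call on leaving out MCT replicate 2 (-1.20, adjusted p = 0.029). Itgb3 had 6.45, 10.5 and 7.39 CPM and 4.61, 4.09 and 6.58 CPM (log2 -0.67, SE 0.28, adjusted p = 0.149). MCT replicate 3 lay just above the lowest control. Of 4 tested platelet and megakaryocyte markers 0 were called by edgeR, with 1 higher and 0 lower both at an unadjusted p under 0.05 and with DESeq2. Their list summed to 7.6 to 15.3 CPM in control and 10.4 to 13.5 CPM in MCT lungs. The part of platelets in these values was not tested.

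Itgb6 was the one member called lower. It encodes β6, which pairs with αv on epithelium and activates TGF-β. It had 143, 116 and 165 CPM in controls and 85.8, 104 and 82.0 CPM in MCT lungs. The groups did not overlap, but the lowest control and the highest MCT sample, both replicate 2, lay close. Itgb6 fell 1.56-fold (log2 -0.64, SE 0.16, adjusted p = 0.0341). The call was lost on leaving out control replicate 1 (adjusted p = 0.0756), control replicate 3 (0.125), MCT replicate 1 (0.0988) or MCT replicate 3 (0.122), and with the replicate number as a block (0.0788). Of the epithelial markers, 1 of 5 general, 1 of 6 alveolar type 1 and 2 of 6 alveolar type 2 genes were called lower, and 0 higher. The general list summed to 980 to 1160.5 CPM in control and 836 to 1016.5 CPM in MCT lungs. The alveolar type 1 list summed to 4779 to 6044 and 3120 to 6089 CPM, and the type 2 list to 24889 to 27055 and 14220 to 23559 CPM. Of 3 tested airway basal and squamous markers 1 was called lower and 0 higher. Their list summed to 5.5 to 7.45 CPM in control and 1.36 to 6.79 CPM in MCT lungs. Other chains of epithelium differed in sign. Itga3, Lamb3 and Itgb4, among others, had log2 fold changes of 0.55, 0.50 and 0.16, and Itga6 had -0.09. The part of epithelial cells in the fall of Itgb6 or in these values was not tested.

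Itgb1 overlapped between groups. It had 1028, 658 and 819.5 CPM in controls and 1066, 1182 and 961 CPM in MCT lungs, with control replicate 1 above MCT replicate 3. The log2 difference was 0.36 (SE 0.19, adjusted p = 0.242). Itgb8, another αv partner, had 9 to 19 counts per sample and a log2 fold change of -0.25 (SE 0.45, adjusted p = 0.759). The α chains Itga4 and Itga9, which bind Vcam1 and other ligands, had -0.09 (SE 0.25, adjusted p = 0.855) and 0.43 (SE 0.25, adjusted p = 0.288). Their ranges overlapped, with 7.45 to 10.1 CPM in control and 5.53 to 9.31 CPM in MCT lungs for Itga4, and 5.66 to 9.22 and 8.54 to 12.95 CPM for Itga9. EdgeR called 0 of these 2, with 0 at an unadjusted p under 0.05 and 0 with DESeq2.

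Among leukocyte chains Itgb2 rose, and its α partners Itgal, Itgad and Itgax did not pass. Itgam, a further α partner, had no entry and could not be examined. Itgb2, the β2 chain (CD18) common to the leukocyte adhesion integrins, had 117, 137 and 124 CPM in controls and 195, 181 and 206 CPM in MCT lungs. All MCT samples lay above all controls, and Itgb2 rose 1.54-fold (log2 0.62, SE 0.12, adjusted p = 0.0132). That call was lost when control replicate 3 (adjusted p = 0.0629) or MCT replicate 3 (0.0535) was left out. Itgax, the α chain CD11c of lung macrophages and dendritic cells, had 28.2, 40.7 and 31.1 CPM in controls and 95.1, 28.3 and 71.5 CPM in MCT lungs. MCT replicates 1 and 3 were above all controls, while MCT replicate 2 stood beside the lowest one. The log2 difference was 0.96 (SE 0.37, adjusted p = 0.126), with a call from DESeq2 (adjusted p = 0.0368) and, at 1.32, on leaving out MCT replicate 2 (0.00514). Itgad, the neighbouring CD11d gene, had 17.1, 21.2 and 16.4 CPM in controls and 43.3, 22.0 and 22.6 CPM in MCT lungs. Only MCT replicate 1 was far from the controls, and the log2 difference was 0.68 (SE 0.27, adjusted p = 0.129). Itgad and Itgax are alike in sequence. The estimated counts of both were whole in every sample, and whether reads were divided wrongly between the pair was not tested.

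The chains Itgal, Itgb7 and Itgae were not called. Itgal, the CD11a chain of T cells and other leukocytes, had 63.5 to 89.2 CPM in controls and 58.8 to 78.5 CPM in MCT lungs (log2 -0.14, SE 0.16, adjusted p = 0.591). Itgb7, which pairs with α4 or αE, had 13.4 to 24.4 CPM and 14.9 to 23.6 CPM (log2 0.06, SE 0.25, adjusted p = 0.907), with a sign that turned on leaving out replicate 1 of either group. Itgae, the αE chain (CD103) of lymphocytes within epithelium and some dendritic cells, had 14.4, 13.2 and 16.7 CPM in controls. It had 21.6, 24.1 and 16.7 CPM in MCT lungs, so MCT replicate 3 was level with the highest control. Its log2 fold change was 0.49 (SE 0.18, adjusted p = 0.11). Of the macrophage markers, 7 of 9 tested were called higher and 0 lower, and untested Marco had 0 counts in every control and at most 4 in an MCT lung. The summed macrophage list moved from 29947 to 39041 CPM in control to 24512 to 33988 CPM in MCT lungs, a sum set mostly by Lyz2, which alveolar type 2 cells also make. Of the T cell markers 1 of 7 was called lower, with sums of 67.7 to 98.7 CPM in control and 54.1 to 73.0 CPM in MCT lungs. At an unadjusted p under 0.05, 5 T cell markers were lower and 1 higher, and DESeq2 called 2 lower and 0 higher. Of 4 tested B cell markers 3 were called lower, with sums of 45.6 to 117 and 25.9 to 39.9 CPM. Of 6 tested neutrophil markers edgeR called 0 and DESeq2 called 0, with 4 higher at an unadjusted p under 0.05, but their list summed to 602 CPM in MCT replicate 1 against 34.1 to 63.6 CPM in controls, and to 74.0 and 53.4 CPM in MCT replicates 2 and 3. Of 6 dendritic cell markers 1 was called higher, with sums of 90.6 to 101.5 and 88.9 to 121 CPM, and of 6 mast cell markers all 6 were, with sums of 23.3 to 34.1 and 384 to 1314 CPM. The part of these cell types in the leukocyte chains was not tested.

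**Figure D5:**
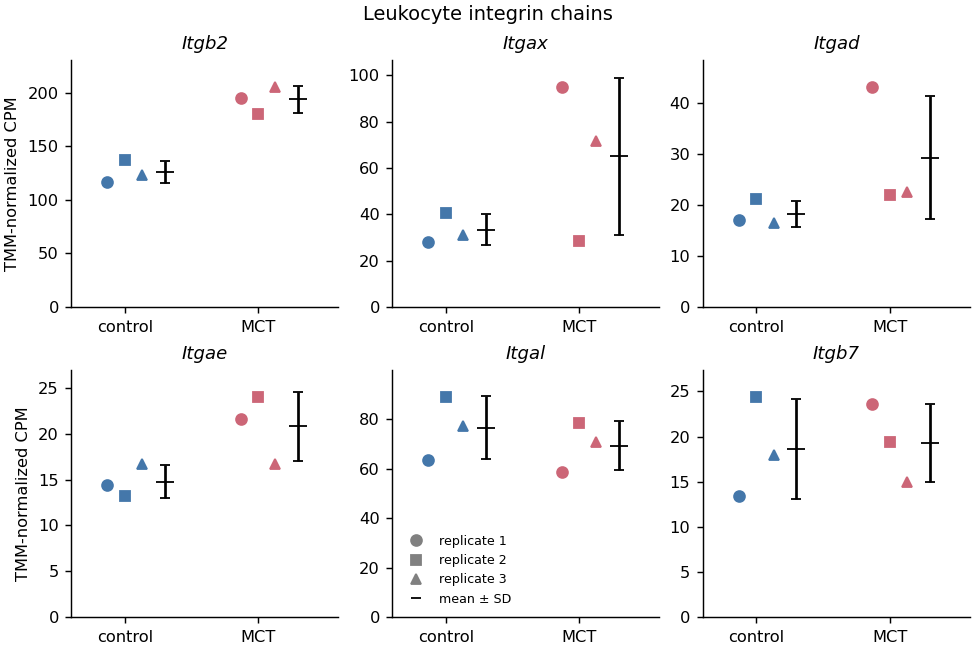
TMM-normalized CPM of 6 leukocyte integrin chains in each of 3 control and 3 MCT lungs, with the mean and SD beside the points; marker shape gives the replicate number. Itgb2 separates the groups, while Itgax at MCT replicate 2 (28.3 CPM) lies with the controls.

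The MCT samples differed among themselves across the members. MCT replicate 2 was the MCT sample nearest the control mean, in log2 CPM, for 15 of the 32 tested members (46.9%), MCT replicate 3 for 12 and MCT replicate 1 for 5. Over all tested genes the shares were 43.5%, 33.5% and 22.9%, so the members follow the table as a whole in this. Leaving it out added calls for Itgax, Itga11, Itga2b and Lamc3, and of these only Itgax was also called under another setting, DESeq2.

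Genes that act with these subunits were counted from 6 lists, which were chosen with earlier results of these data known. The median log2 fold change of all tested genes was -0.01. Of them 8.01% were called higher and 5.11% lower, or 13.1% in either direction. The lists' shares were 64% for matrix ligands, 36.4% for cell-surface ligands and 35.3% for basement membrane partners. They were 20.6% for adhesion adaptors and kinases, 12.5% for tetraspanins, near that of all tested genes, and 0% for laminin receptors other than integrins. Matrix ligands of integrins other than laminins had the largest share called: 14 of 25 tested were higher and 2 lower, with a median log2 fold change of 0.72. Fn1, the gene of fibronectin, had 534, 652 and 577 CPM in controls and 3802, 2451 and 2999 CPM in MCT lungs. Cyr61, a matricellular ligand of αv and α6 integrins, rose 2.97-fold (adjusted p = 0.00159), and the fibrillar collagen genes Col1a1 and Col3a1 rose 2.16-fold and 2.03-fold (adjusted p = 0.00336 and 0.00729). The 2 lower were Npnt, a ligand of α8β1 (-0.63, adjusted p = 0.0386), and Egfl6, a secreted RGD protein (-1.32, adjusted p = 0.0185), both named after their values were seen. Npnt lost its call on leaving out control replicate 2 or 3, or replicate 1 or 3 of MCT, with adjusted p from 0.0925 to 0.14. Egfl6 lost it on leaving out any 1 control (adjusted p = 0.0519 to 0.0662).

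Basement membrane partners of laminin had 5 of 17 tested higher and 1 lower, with a median of 0.51. Hspg2 was also on this list but had no entry under this symbol. Col4a1 and Col4a2, the chains of the common type IV collagen, rose 2-fold and 1.74-fold (adjusted p = 0.00653 and 0.00483). Col4a1 had 730, 703 and 563 CPM in controls and 1272, 1432 and 1285 CPM in MCT lungs, all above the controls. Col18a1 rose 2.14-fold (adjusted p = 0.00218). Nid1 and Nid2, whose products link laminin γ1 to collagen IV, had log2 fold changes of 0.65 and 1.05 (adjusted p = 0.0288 and 0.0173). Both calls ended without control replicate 2 or 3, and for Nid1 also without replicate 1 of MCT, with adjusted p from 0.0609 to 0.113. Col4a3, a chain of the alveolar collagen IV network, had -0.83 (adjusted p = 0.0231), a call lost on leaving out replicate 1 or 3 of either group, with adjusted p from 0.0584 to 0.0914. Nid1, Nid2 and Col4a3 were named after their values were seen. Sparc, the most abundant gene of the list, had 0.51 (adjusted p = 0.113) and was called with DESeq2 (adjusted p = 0.0191).

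Of the adhesion adaptors and kinases 5 of 34 tested were higher and 2 lower, with a median of 0.06. Parvg, the parvin of blood cells, had 22.2, 19.3 and 25.3 CPM in controls and 49.3, 51.6 and 54.4 CPM in MCT lungs, a rise of 2.32-fold (adjusted p = 0.00189). Tgfb1i1, a paxillin relative of smooth muscle, rose 1.62-fold (adjusted p = 0.00758). Actn1 and Flna, actin crosslinkers that bind β chain tails, had log2 fold changes of 0.83 and 0.58 (adjusted p = 0.0196 and 0.0247). Actn1 lost its call on leaving out control replicate 2 or 3, or replicate 1 or 3 of MCT, with adjusted p from 0.0558 to 0.0836. That of Flna ended on leaving out any 1 sample other than replicate 2 of MCT, with adjusted p from 0.0509 to 0.0823. The replicate number as a block also ended it (adjusted p = 0.0832). The remaining calls, named after their values were seen, were Fermt3, the kindlin of blood cells, at 0.70 (adjusted p = 0.0454), Tns1 at -0.77 (adjusted p = 0.0345) and Rasgrp2 at -0.65 (adjusted p = 0.0497). Each of the 3 lost its call in at least 4 of the 6 fits that left out 1 sample (adjusted p = 0.0546 to 0.159), and Fermt3 also with the replicate number as a block (0.0931) and with library totals alone (0.0508).

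Cell-surface ligands had 2 of 11 tested higher and 2 lower, with a median of -0.11. Vcam1, the endothelial ligand of α4β1, rose 2.68-fold, from 64.1, 69.1 and 62.1 CPM to 204, 137 and 182 CPM (adjusted p = 0.00183). Jam3 rose 1.87-fold (adjusted p = 0.00483). Esm1, an endothelial proteoglycan that binds αLβ2, fell 4.81-fold (adjusted p = 0.0107), and Jam2, named after its value was seen, stood at -1.04 (adjusted p = 0.0173). Jam2 lost its call on leaving out control replicate 2 or 3, or replicate 3 of MCT, with adjusted p from 0.0537 to 0.0664. Icam1, the most abundant ligand of the list and the main partner of the β2 integrins, had 0.13 (adjusted p = 0.656) with overlapping groups. Of the tetraspanins 1 of 8 was higher: Cd63, with 0.95 (adjusted p = 0.0124), a call that ended without control replicate 2 or 3 (adjusted p = 0.0561 and 0.0535). Cd9 and Cd81 had -0.42 and 0.37 (adjusted p = 0.126 and 0.158). Laminin receptors other than integrins had 0 of 11 called by edgeR, with 0 higher and 1 lower at an unadjusted p under 0.05 and 0 with DESeq2. In that list Rpsa had 0.23, Sdc3 -0.40 and Cd44 0.25 (adjusted p = 0.394, 0.0898 and 0.169).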

How the data were processed

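The members and gene lists were chosen with earlier results of these data known. The deposited table gives, per gene and sample, an estimated count and an FPKM value made by the authors, per the file headers. Bowtie2, TopHat2 2.0.3.12 and build Rnor_6.0 are named in the submitters' processing notes. For the counting tool, the annotation release and multi-mapped reads, the methods were not given in the sources used here. Between 90.7% and 91.5% of the counts above 0 were whole, and all were rounded, although the test had been set for raw counts. Groups and replicate numbers come from sample titles. EdgeR 4.0.16 in R 4.3.3 was run with TMM and filterByExpr (minimum count 10, minimum total 15), quasi-likelihood fits, no covariate and Benjamini-Hochberg adjustment over 15250 genes, tested on simulated data. Errors are SDs over 3 samples. Each SE is the absolute log2 fold change divided by the square root of the quasi-likelihood F statistic. Implied gene length is count over total and FPKM. Within groups every pair of samples differed by more than sampling noise (chi-square per degree of freedom 22.1 to 49.7). Named genes are the members, and of each other list the 3 with the smallest p and the most abundant. Alternatives were DESeq2 1.42.0, median-of-ratios factors, no filter, at least 1 CPM in all samples of a group, a replicate block, each sample left out, and library totals alone, the last chosen after seeing the data. Sequences are RefSeq's, on GRCr8. No genome of the files' build was used, so the genes' own positions are not given. 1 member is not reported here.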

Additional observations from a re-analysis of the deposited data

How the results depend on the processing

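The members called higher numbered 4, and with DESeq2 they numbered 7, Itgax, Lamb1 and Lamb3 being added. Leaving out 1 sample at a time gave 0 to 5 members higher and 0 to 4 lower, against 1 lower in the full data. Over all genes it gave 481 to 1394 higher and 212 to 978 lower, against 1221 and 779, and over the 6 lists of partner genes 14 to 28 higher and 1 to 10 lower, against 27 and 7. With the replicate number as a block, 0 members were lower (4 at an unadjusted p under 0.05) since Itgb6 lost its call (log2 -0.63, adjusted p = 0.0788), 4 stayed higher, and over all genes 917 were higher and 546 lower. Same-numbered samples did not deviate together (correlations of -0.0583, -0.0695 and -0.00241). No pairing by number was seen, though 3 samples per group cannot exclude one. Signs turned in small values: Itga4 ran from -0.23 (without MCT replicate 2) to 0.12, with 0.07 without control replicate 2 and 0.12 without MCT replicate 3; Itga6 from -0.32 to 0.13, with 0.13 without control replicate 1 and 0.10 without MCT replicate 1; Itgb7 from -0.13 to 0.30, with -0.13 and -0.11 without the same samples; and Lama2 from -0.0035 without MCT replicate 2 to 0.32. The cause of these turns was not tested. Scaling, filters and library totals left the 5 member calls as they were. Each symbol had 1 entry, so summing entries was not run. Counts of 35 or fewer per sample limit Itga10, Lama1, Itgb8 and Itga2.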
